A study of Saccharomyces cerevisiae with 9 samples.

Results

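The 39 genes described here are budding yeast genes of the tricarboxylic acid (TCA) cycle, the glyoxylate cycle and gluconeogenesis, with enzymes, carriers and regulators that feed them. They were chosen by name, whatever their signal, from the 5449 S. cerevisiae genes named on the array, and each of the 39 had 1 probe set. Strain JPY12, which carries its histone H3 gene on a plasmid, expressed H3 with a wild-type sequence (3 arrays) or with lysine 42 changed to alanine (K42A), leucine (K42L) or glutamine (K42Q), with 2 arrays for each mutant. The mutant H3 was carried on the plasmid pEMH7. All groups grew in rich YPD medium, which contains glucose, to log phase at an A600 of about 0.7, and the design text calls the mutant replicates biological. The series asks what lysine 42 of H3, which lies where DNA enters and leaves the nucleosome, does for transcription.

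On glucose, yeast ferments and holds down many genes for the use of other carbon sources. When glucose is gone, the activators Cat8 and Sip4, whose activity depends on the kinase Snf1, switch on the glyoxylate cycle and gluconeogenesis, which build sugars from acetate, ethanol or lactate. The first steps of the TCA cycle, up to 2-oxoglutarate, also make the carbon skeleton of glutamate and are controlled separately from the later steps. Several enzymes exist as paralogs, with one form for mitochondria and others for the cytosol or peroxisome.

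PCK1, JEN1, SFC1, SIP4, CAT2 and MLS1 had higher signals in K42A and K42Q than in wild type. SUC2 passed in K42Q alone, a call lost in 12 alternative runs, and MDH2 fell in K42Q. All of these but PCK1, SUC2 and MDH2 were dim, and 53.5% and 49.5% of all genes as dim were also called higher in K42A and K42Q. PCK1 read 53.6 to 71.6 in wild type and passed the signal filter of 87.0 only through the mutants, so its testing is not independent of its change. Among enzymes of the TCA cycle LSC2, KGD2 and MDH1 rose in both mutants, FUM1 fell in K42A and ACO1 rose in K42Q. The LSC2 and FUM1 calls held in every alternative run, and those of KGD2, MDH1 and ACO1 were lost under median centring. CIT1, IDH1, IDH2, IDP1, KGD1, LPD1 and LSC1 did not pass against wild type with all 9 arrays in 1 fit. In a fit that split the arrays by background level, CIT1, IDH1 and IDH2 rose in K42Q and IDP1 fell in K42A. In K42L no gene of the 39 passed the test with all 9 arrays. Without wild type replicate 1, 4 of 27 tested genes rose and 7 fell in K42L, against 16.9% and 16.5% of all tested genes. These results thus rest on which wild-type arrays are used. The first TCA genes CIT1, ACO1, IDH1 and IDH2 were higher in K42Q than in K42L on every array.

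The deposited signal is a linear fluorescence value, used here as log2. A gene was tested where its mean signal over all arrays reached 87.0, the 25th percentile of all genes, and 4087 genes, 27 of the 39 among them, were tested. The other 12 were dimmer and are given by their levels and by a fit of all 5449 genes with no filter. All 39 lay above the 95th percentile of the background on each of the 9 arrays. That background, read from probe sets of other listed genes, was 4.4 to 9.6. A call is an adjusted p under 0.05 from limma with Benjamini-Hochberg adjustment over all genes in the fit, and changes are log2 differences ± SE. The 3 comparisons with wild type share its 3 arrays.

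By their background level the arrays fell into a low set, with wild type replicate 1 and the K42L and K42Q arrays, and a high set, with wild type replicates 2 and 3 and the K42A arrays. The labels name no batch. A fit with the set as a block compares K42A with wild type replicates 2 and 3, and K42L and K42Q with wild type replicate 1, which is then assumed to vary like the other arrays. Markers of a cells, the mating type of the strain by its signals, were bright (STE2 1809 to 2087.8 in wild type), and 4 of 5 fell in K42A and 4 of 5 in K42Q, where 19.7% and 18.2% of all tested genes fell. Of the 4 alpha-cell markers SAG1 was tested, at 121.3, 153.2 and 152.5 in wild type, and the others were under the filter. STE3 was at 27.3 to 29.6 in wild type, 56.7 and 61.6 in K42A and 59.1 and 62.7 in K42Q. In a fit of all genes with no filter 3 of the 4 rose in each of these mutants. In that fit 30.8% and 28.7% of all 5449 genes rose in K42A and K42Q, and 53.5% and 49.5% of all dim genes. Of 6 markers of growth on glucose (HXT1, HXT3, PDC1, ADH1, ENO2 and CDC19) 0 passed in any mutant. Their part in the results below was not tested.

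Of the 27 tested genes, 7 rose and 4 fell in K42A, where 22.6% of all tested genes rose and 19.7% fell. In K42Q 9 rose and 4 fell, against 21.4% and 18.2% of all tested genes. Counts near the shares over all genes are no result about these 27, and the rising count in K42Q was 4 without either K42Q array and 5 with the compared groups alone. In K42L 0 rose and 0 fell by limma, against 0.318% and 0.343% of all genes. At an unadjusted p under 0.05, 4 were higher and 7 lower in K42L. The share of all genes at that unadjusted threshold was not counted, so these 4 and 7 cannot be set against it. The median log2 change over the 27 was 0.11 in K42A, -0.10 in K42L and 0.22 in K42Q, beside -0.01, 0.01 and 0.00 over all tested genes.

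The split between rising and falling genes depended on the scaling. With each array centred on its median, which put the median change of all tested genes at -0.18 in K42A and -0.12 in K42Q, 5 of the 27 rose and 11 fell in K42A (14% and 41.2% of all genes). In K42Q 3 rose and 6 fell (14.7% and 29.9%). Scaling to the spike-in controls with the set as a block put that median at 0.16 in K42A and 0.19 in K42Q. There 12 rose and 2 fell in K42A (34.8% and 5.09% of all genes), and 11 rose and 0 fell in K42Q (28.3% and 4.84%).

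**Figure D1:**
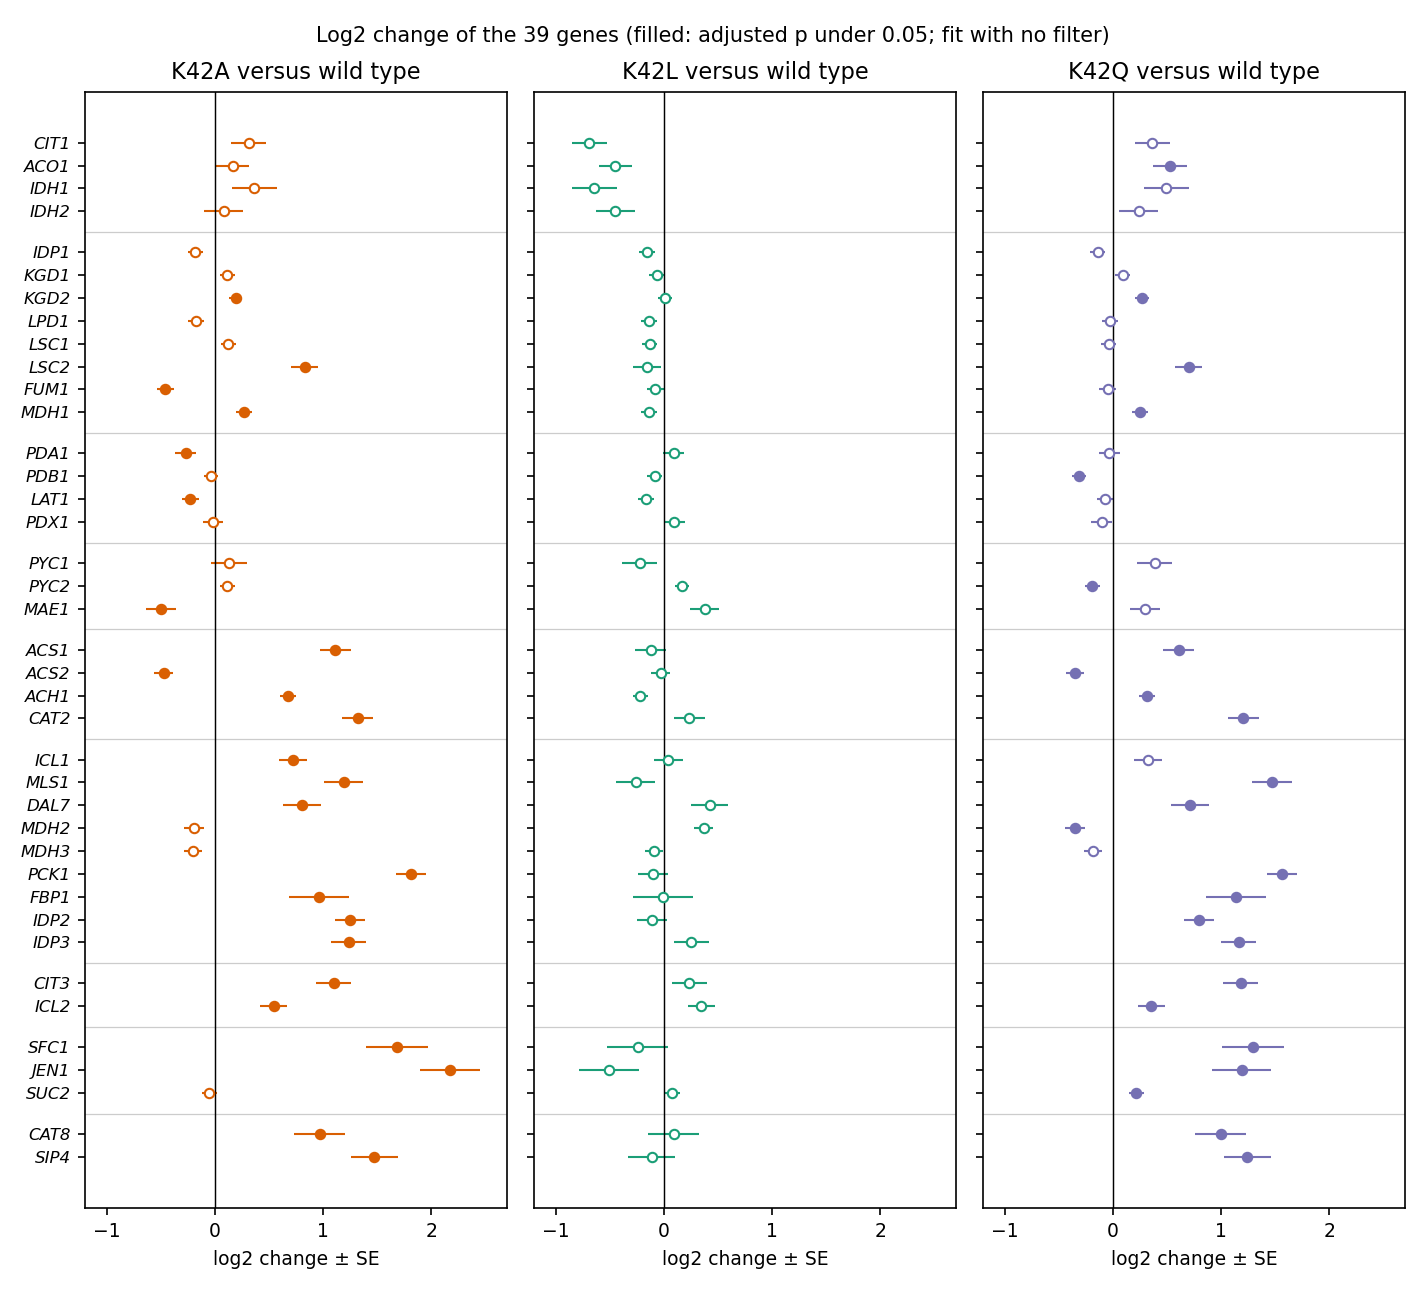
Log2 change with its standard error (horizontal axis) of the 39 genes, by role from top to bottom, in K42A, K42L and K42Q against wild type, from the fit of all 5449 genes with no filter. Filled points passed an adjusted p of 0.05. In K42A 19 rose and 5 fell (30.8% and 16.2% of all 5449 genes), in K42L 0 and 0 (0.459% and 0.385%), and in K42Q 20 and 4 (28.7% and 14.5%). The filled points on the right gathered in the lower, glucose-repressed groups, which hold the 12 genes under the filter. Of all genes under the filter 53.5% rose in K42A and 49.5% in K42Q.

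PCK1 encodes phosphoenolpyruvate carboxykinase, the step that commits carbon to gluconeogenesis. Its signal was 53.6, 71.6 and 70.3 on the wild-type arrays, 212.9 and 243.5 in K42A, 63.5 and 57 in K42L, and 204 and 179.8 in K42Q. The K42A and K42Q arrays lay above every wild-type and K42L array, and K42L overlapped wild type. It rose 3.52-fold in K42A (log2 1.82 ± 0.14, limma adjusted p = 2.36e-05) and 2.96-fold in K42Q (1.57 ± 0.14, adjusted p = 4.61e-05), and both calls held in every alternative run. PCK1 is the 1 gene of the 27 that passed the filter through the mutants alone, so its place among the tested genes is not independent of its change.

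The other enzymes of the glyoxylate cycle and gluconeogenesis were dim, apart from the malate dehydrogenases MDH2 and MDH3. Those passed the filter and rose in neither K42A nor K42Q, as given further below. FBP1, for fructose-1,6-bisphosphatase, the other enzyme dedicated to gluconeogenesis, read 14.2, 24.4 and 14 in wild type, 28.2 and 38.6 in K42A, 18.1 and 15.6 in K42L, and 44 and 31.5 in K42Q. MLS1, the malate synthase of the glyoxylate cycle, read 24, 20.4 and 25.1 in wild type, 49.8 and 55.8 in K42A, 22.9 and 16.2 in K42L, and 70.2 and 58.3 in K42Q. The K42A and K42Q arrays stood above all wild-type and K42L arrays for both genes. ICL1, for isocitrate lyase, the entry enzyme of the cycle, read 49.8, 46.6 and 50 in wild type, 71.7 and 90.6 in K42A, 48.7 and 51.7 in K42L, and 66.3 and 56.1 in K42Q. Its arrays did not overlap between wild type and K42A or K42Q, and the gap was smaller in K42Q. DAL7, a malate synthase paralog of the allantoin pathway, read 28.1, 24.1 and 29.5 in wild type, 52.8 and 42.5 in K42A, 31.1 and 42.5 in K42L, and 46 and 43 in K42Q. For DAL7 the K42L arrays also lay above all wild-type arrays, and the higher of them equalled the lower K42A array.

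In the fit with no filter MLS1 rose by log2 1.19 ± 0.18 in K42A (limma adjusted p = 0.000679) and 1.47 ± 0.18 in K42Q (adjusted p = 0.00023). ICL1 rose in K42A (0.72 ± 0.13) and did not pass in K42Q (0.32 ± 0.13, limma adjusted p = 0.0731). FBP1 rose in both mutants, by 0.96 ± 0.28 and 1.14 ± 0.28, and DAL7 by 0.80 ± 0.17 and 0.71 ± 0.17. FBP1 lost its call without K42A replicate 2 (0.74) or K42Q replicate 1 (0.90), and DAL7 without K42A replicate 1 (0.65) or K42Q replicate 1 (0.66).

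The cytosolic and peroxisomal isocitrate dehydrogenases IDP2 and IDP3, which supply NADPH outside mitochondria, were under the filter, and the mitochondrial IDP1 was bright. IDP2 read 39.1, 35.6 and 30.8 in wild type, 80.3 and 86.2 in K42A, 29.7 and 35.3 in K42L, and 64.5 and 57.4 in K42Q. IDP3 read 17.1, 14 and 17.7 in wild type, 38 and 38.3 in K42A, 18.6 and 20 in K42L, and 38.5 and 34.1 in K42Q. Both stood apart from wild type in K42A and K42Q, and rose by 1.25 ± 0.14 and 1.24 ± 0.16 in K42A and by 0.80 ± 0.14 and 1.16 ± 0.16 in K42Q. IDP1 lay between 846.3 and 1021 on all arrays and passed in no mutant, at -0.18 ± 0.07, -0.16 ± 0.07 and -0.14 ± 0.07 in K42A, K42L and K42Q. With the set as a block IDP1 fell in K42A (-0.18 ± 0.07, limma adjusted p = 0.034).

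Among the transporters, JEN1, the lactate and pyruvate permease, read 14.2, 31.5 and 22.9 in wild type, 91.8 and 104.7 in K42A, 14.2 and 16.4 in K42L, and 49.7 and 49.4 in K42Q. The K42A arrays were the highest and the K42Q arrays lay between them and wild type, with no overlap. The wild-type arrays themselves spread widely, with the high-set pair 1.89-fold above wild type replicate 1. JEN1 rose by 2.17 ± 0.27 in K42A (limma adjusted p = 0.000227) and 1.19 ± 0.27 in K42Q (adjusted p = 0.00666), and by 1.87 and 1.80 with the set as a block. SFC1, the mitochondrial succinate-fumarate carrier that links the glyoxylate cycle to gluconeogenesis, read 11.5, 11.7 and 16.4 in wild type, 32.1 and 54.5 in K42A, 9.3 and 13 in K42L, and 37.8 and 27.1 in K42Q. It rose by 1.68 ± 0.29 and 1.30 ± 0.29 in K42A and K42Q. In K42Q both JEN1 (1.19) and SFC1 (1.06) lost the call without K42Q replicate 1.

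SUC2, the secreted invertase that is a standard reporter of glucose repression, did not follow this pattern. Its signals were 419.1, 416.7 and 379.3 in wild type, 382.3 and 399.2 in K42A, 412.5 and 440.3 in K42L, and 461.9 and 478.9 in K42Q. The K42A arrays fell within the wild-type range, and the K42Q arrays lay just above it. SUC2 did not pass in K42A (-0.05 ± 0.07) and rose in K42Q by 0.22 ± 0.07 (limma adjusted p = 0.034). That call was lost in 12 alternatives, the set as a block (0.17) and median centring (0.10) among them.

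CAT8 and SIP4, the zinc cluster activators of gluconeogenic genes, were near the bottom of the signal range. CAT8 read 16.9, 10.5 and 11.5 in wild type, 23.5 and 26.2 in K42A, 14.8 and 12.3 in K42L, and 28 and 22.9 in K42Q. SIP4, itself a Cat8 target, read 10.6, 15.1 and 14.6 in wild type, 34.6 and 39.4 in K42A, 13.8 and 10.9 in K42L, and 35.3 and 28 in K42Q. For both genes the K42A and K42Q arrays lay above all wild-type and K42L arrays. SIP4 rose by 1.48 ± 0.22 in K42A and 1.24 ± 0.22 in K42Q, and CAT8 by 0.968 ± 0.24 and 0.997 ± 0.24. CAT8 was at -0.01 in K42A under quantile scaling and at 0.08 under cyclic loess, and it did not pass in K42Q with the set as a block (0.58), so no direction is given for it across scalings. Without K42A replicate 2 (0.89) or K42Q replicate 1 (0.85) it lost the call as well.

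**Figure D2:**
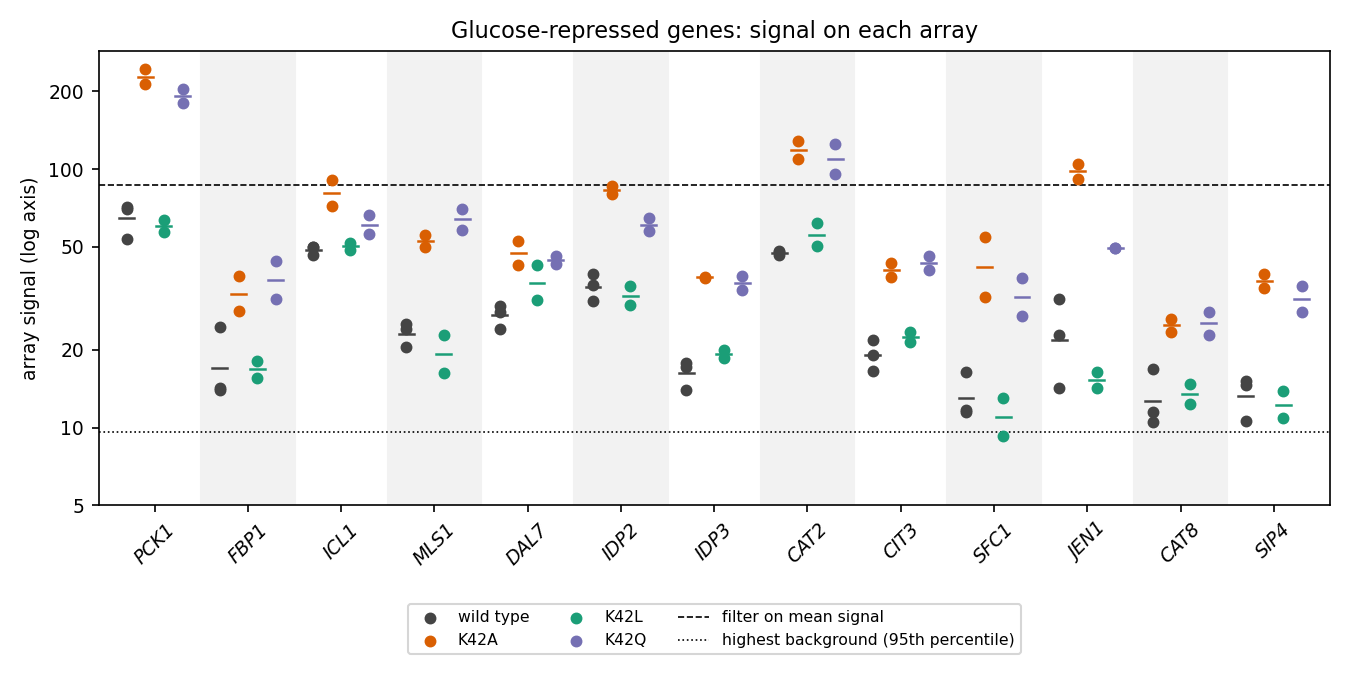
Array signal (vertical log axis) of PCK1 and the 12 genes under the filter, with 1 point for each array and a bar at the geometric mean of each group. The dashed line is the filter on mean signal, 87.0, and the dotted line the highest background, 9.6; K42A and K42Q points lie above the wild-type points for all 13 genes, while K42L points mostly lie among them.

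As a group, the 12 genes under the filter stood above wild type on both arrays of K42A and of K42Q in 12 of 12 cases, where 67.3% and 63.5% of all 1362 genes under the filter did so. The fit with no filter called 12 of the 12 higher in K42A (53.5% of the 1362) and 11 of 12 in K42Q (49.5%), and 0 of 12 in K42L (0.808%). In K42L 1 was higher at an unadjusted p under 0.05, a threshold at which the share of the 1362 was not counted. The median log2 change of the 12 was 1.21 in K42A, 0.02 in K42L and 1.17 in K42Q, beside 0.54, 0.05 and 0.46 over the 1362. Dim genes thus had higher signals as a class in K42A and K42Q, and the counts of these 12 have to be read against that.

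Scalings that force the arrays to one distribution removed much of this shift. Under quantile scaling the median over the 1362 was -0.05 in K42A and -0.05 in K42Q, and that of the 12 was 0.42 and 0.38, with 6 and 2 of 12 called higher against 22.6% and 18.1% of the 1362. Under cyclic loess 7 and 5 of 12 were called, against 22.9% and 19.6%. CAT2 and MLS1 kept the call in both mutants under both scalings, and JEN1, IDP2, SFC1 and SIP4 did so in K42A. These alternatives were chosen after the data had been seen.

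**Figure D3:**
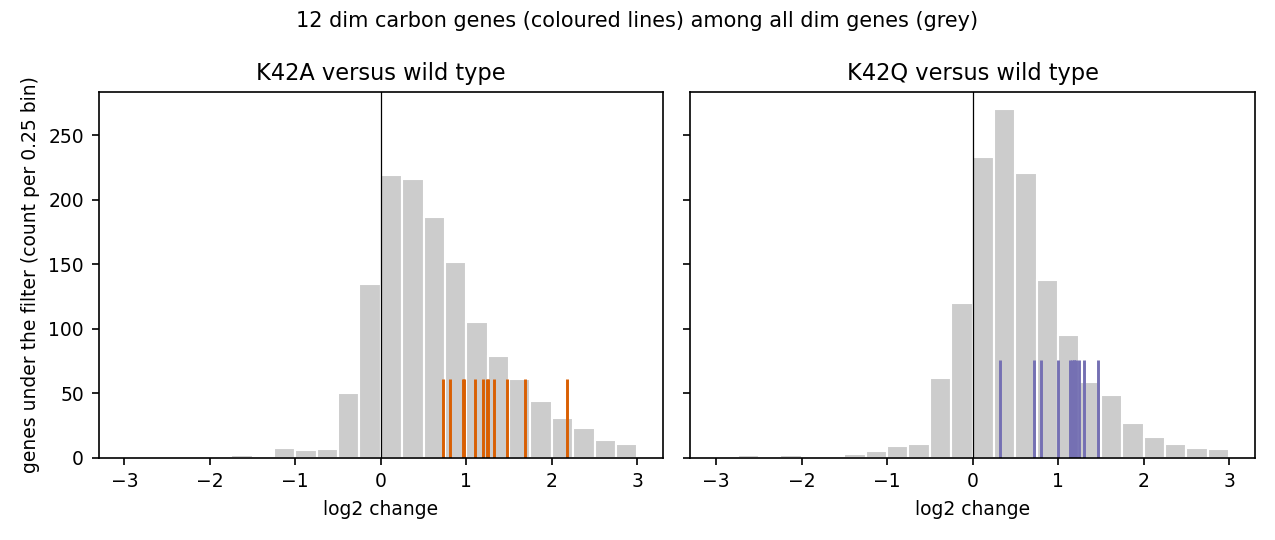
Log2 change against wild type (horizontal axis) of the genes under the filter, with the grey bars counting other genes for each bin of 0.25 and the coloured lines marking the 12 carbon genes. Values beyond 3 in either direction are counted in the outermost bins. The bulk of the grey distribution lies right of 0 in K42A and K42Q, and the 12 genes run from 0.72 to 2.17 and from 0.32 to 1.47.

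The enzymes that supply acetyl-CoA divided by paralog. ACS1, the acetyl-CoA synthetase made when glucose is scarce, read 92.5, 121.7 and 122.2 in wild type, 238.8 and 243 in K42A, 90.4 and 115.4 in K42L, and 179.9 and 159.6 in K42Q. ACS2, the synthetase used during growth on glucose, read 1198, 1161.1 and 1329.7 in wild type, 884 and 882.1 in K42A, 1259.2 and 1145.4 in K42L, and 914.4 and 1010.8 in K42Q. The K42A and K42Q arrays lay above wild type for ACS1 and below it for ACS2, without overlap. ACS1 rose 2.17-fold in K42A (1.12 ± 0.15, limma adjusted p = 0.00045) and 1.52-fold in K42Q (0.61 ± 0.15, adjusted p = 0.00944). ACS2 fell by 0.48 ± 0.08 in K42A (limma adjusted p = 0.00202) and by 0.35 ± 0.08 in K42Q (adjusted p = 0.00906), and its call in K42Q was lost under spike-in scaling with the set as a block (-0.14). In K42Q both calls were lost without K42Q replicate 1, at 0.52 for ACS1 and -0.28 for ACS2.

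ACH1, which moves coenzyme A between acetate and succinate, read 215.2, 234.8 and 241.2 in wild type, 365.3 and 370.1 in K42A, 193.6 and 202.3 in K42L, and 280.5 and 291.9 in K42Q. The groups did not overlap, with K42A highest and K42L lowest. ACH1 rose by 0.68 ± 0.07 in K42A (limma adjusted p = 0.000151) and by 0.31 ± 0.07 in K42Q (adjusted p = 0.00839), where median centring (0.20) or leaving out K42Q replicate 2 (0.29) ended the call. CAT2, the carnitine acetyltransferase that carries acetyl units between compartments, was under the filter. It read 46.4, 48.1 and 47.8 in wild type, 128.7 and 109.1 in K42A, 50.5 and 61.6 in K42L, and 125.1 and 95.7 in K42Q, and rose by 1.32 ± 0.14 and 1.21 ± 0.14 in K42A and K42Q. Both K42L arrays also lay above wild type for CAT2, at 0.23 ± 0.14, which did not pass.

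The methylcitrate cycle breaks down propionyl-CoA in mitochondria. CIT3, a citrate and methylcitrate synthase, read 21.8, 16.6 and 19.1 in wild type, 38.3 and 43.4 in K42A, 23.4 and 21.4 in K42L, and 40.6 and 45.9 in K42Q. ICL2, the methylisocitrate lyase, read 103.9, 82.2 and 87.5 in wild type, 134.7 and 129.9 in K42A, 106.7 and 124.3 in K42L, and 125.6 and 107 in K42Q. K42A and K42Q did not overlap wild type for either gene, and for ICL2 neither did K42L. CIT3 rose by 1.10 ± 0.16 and 1.18 ± 0.16 in K42A and K42Q. ICL2 rose in K42A by 0.54 ± 0.12 (limma adjusted p = 0.00746), a call that ended under quantile scaling (0.29) and without K42A replicate 1 (0.52). In K42Q it passed narrowly at 0.35 ± 0.12 (limma adjusted p = 0.0465) and lost the call in 16 alternatives, with the set as a block (0.16) among them.

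The later steps of the TCA cycle changed one by one. LSC2, the beta subunit of succinyl-CoA ligase, read 228.2, 232.1 and 223.1 in wild type, 483.2 and 339.8 in K42A, 198.4 and 210.1 in K42L, and 353.3 and 387.3 in K42Q. Its K42A and K42Q arrays were far above wild type, although the K42A pair differed from each other. It rose 1.78-fold in K42A (0.83 ± 0.13, limma adjusted p = 0.000994) and 1.62-fold in K42Q (0.70 ± 0.13, adjusted p = 0.00252), in every alternative run. LSC1, which encodes the alpha subunit of the same enzyme, passed in neither mutant, at 0.12 ± 0.07 and -0.04 ± 0.07, and read 711.9 to 888.5 over all arrays.

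KGD2, the succinyltransferase of the 2-oxoglutarate dehydrogenase complex, read 378.3, 393 and 380.9 in wild type, 428.8 and 448.3 in K42A, 376.4 and 395.9 in K42L, and 462.9 and 462.6 in K42Q. MDH1, the mitochondrial malate dehydrogenase, read 765.7, 688.5 and 736.2 in wild type, 897.2 and 863.7 in K42A, 660.3 and 664.3 in K42L, and 820.6 and 920.3 in K42Q. Both stood above wild type without overlap in K42A and K42Q. The steps were small. KGD2 rose by 0.19 ± 0.06 and 0.27 ± 0.06, and MDH1 by 0.27 ± 0.07 and 0.25 ± 0.07, in K42A and K42Q. None of the 4 calls held under median centring, and MDH1 in K42Q did not pass with the set as a block (0.18). Among all alternatives KGD2 lost its call in 8 for K42A and 2 for K42Q, and MDH1 in 5 and 8. KGD1, the first enzyme of the same complex, and LPD1, the dihydrolipoamide dehydrogenase it shares with pyruvate dehydrogenase, passed in no mutant. Their changes lay between -0.17 and 0.11.

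FUM1, the fumarase, went the other way in 1 mutant. It read 727.3, 720.1 and 723.2 in wild type, 543.8 and 509.9 in K42A, 677 and 692.3 in K42L, and 648.4 and 754.2 in K42Q. The K42A arrays were the lowest of all, and the K42Q pair lay on either side of wild type. FUM1 fell by 0.46 ± 0.07 in K42A (limma adjusted p = 0.00131) in every alternative run, and did not pass in K42Q (-0.05 ± 0.07). The direct difference between K42A and K42Q was -0.41 ± 0.08 (limma adjusted p = 0.0109), and -0.40 ± 0.11 with the set as a block. It did not pass under spike-in scaling with the set as a block (-0.39) or without K42A replicate 2 (-0.36) or K42Q replicate 2 (-0.30).

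The malate dehydrogenases outside mitochondria did not rise with MDH1. MDH2, the cytosolic form used in gluconeogenesis, read 313.2, 283.1 and 270.9 in wild type, 232.2 and 272.6 in K42A, 362.6 and 381.3 in K42L, and 219 and 233.6 in K42Q. K42Q lay below wild type, K42L above it, and K42A overlapped it. MDH2 fell by 0.35 ± 0.09 in K42Q (limma adjusted p = 0.0148), except under spike-in scaling with the set as a block (-0.29) or without K42Q replicate 1 (-0.30), and did not pass in K42A (-0.20 ± 0.09) or K42L (0.37 ± 0.09, limma adjusted p = 0.115). The difference between K42L and K42Q was 0.72 ± 0.10 (limma adjusted p = 0.00096). MDH3, the peroxisomal form, read 342.8 to 433.2 and passed in no mutant, but fell in K42A with the set as a block (-0.22 ± 0.08, limma adjusted p = 0.0369).

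The first steps of the TCA cycle gave a different picture. CIT1, the mitochondrial citrate synthase, read 621.2, 941.9 and 965.9 in wild type, 1046.7 and 1010.4 in K42A, 499.3 and 526.6 in K42L, and 1033.9 and 1094 in K42Q. ACO1, the aconitase, read 916.3, 1305.1 and 1400.5 in wild type, 1354.2 and 1305.3 in K42A, 838.1 and 902.7 in K42L, and 1615.4 and 1814.1 in K42Q. For both genes wild type replicate 1 stood near the K42L arrays and wild type replicates 2 and 3 near or between the K42A arrays. IDH1, a subunit of the NAD-dependent isocitrate dehydrogenase, read 479.4, 820 and 870.9 in wild type, 945.1 and 860 in K42A, 442.1 and 452.3 in K42L, and 978.4 and 990.1 in K42Q. IDH2, the partner subunit, read 865.4, 1279.3 and 1447.4 in wild type, 1287.1 and 1189.1 in K42A, 776.8 and 945.4 in K42L, and 1359.7 and 1399.5 in K42Q. The same division ran through both subunits. PYC1, a pyruvate carboxylase that refills the cycle with oxaloacetate, read 608.6, 840.2 and 955.7 in wild type, 938.5 and 793.7 in K42A, 634.1 and 715.8 in K42L, and 1052.5 and 1005.9 in K42Q.

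Within wild type these 5 genes were 1.47- to 1.76-fold higher on the 2 high-set arrays than on replicate 1. Against wild type, ACO1 in K42Q was the 1 call among them (0.53 ± 0.16, limma adjusted p = 0.0247), and it was lost under median centring (0.41) or without either K42Q replicate. With the set as a block all 5 rose in K42Q, by 0.78 ± 0.07 for CIT1, 0.90 ± 0.09 for ACO1, 1.04 ± 0.08 for IDH1, 0.67 ± 0.11 for IDH2 and 0.76 ± 0.11 for PYC1, all against wild type replicate 1, where 22.6% of all tested genes rose and 20.6% fell. In the same fit they lay between -0.14 and 0.11 in K42A and between -0.28 and 0.15 in K42L, and 0 of the 5 passed in either mutant. The share of all genes that rose and fell in that fit was 27.2% and 27.6% in K42A and 0.318% and 0.147% in K42L. Without wild type replicate 1, however, 4 of the 27 tested genes rose and 7 fell in K42L, against 16.9% and 16.5% of all genes, and CIT1 (-0.90), ACO1 (-0.64), IDH1 (-0.92), IDH2 (-0.67) and PYC1 (-0.41) were among those that fell. Whether these genes pass in K42L thus rests on which wild-type arrays are used.

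K42L and K42Q lie in the same set and can be compared directly. CIT1 was lower in K42L than in K42Q by 1.05 ± 0.18 on the log2 scale (limma adjusted p = 0.00235), ACO1 by 0.98 ± 0.17 (adjusted p = 0.00281), IDH1 by 1.14 ± 0.23 (adjusted p = 0.00547), IDH2 by 0.69 ± 0.20 (adjusted p = 0.0294) and PYC1 by 0.61 ± 0.18 (adjusted p = 0.0295). No K42L array reached a K42Q array for any of them. The CIT1, ACO1 and IDH1 calls held in every alternative, and those of IDH2 and PYC1 were lost when either array of K42L or K42Q was left out (IDH2 also without either K42A array). In all, 4 of the 27 were higher and 11 lower in K42L than in K42Q, against 14.8% and 16.7% of all tested genes, and PCK1 had the largest difference of the 27 (-1.67 ± 0.15, limma adjusted p = 7.73e-05).

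**Figure D4:**
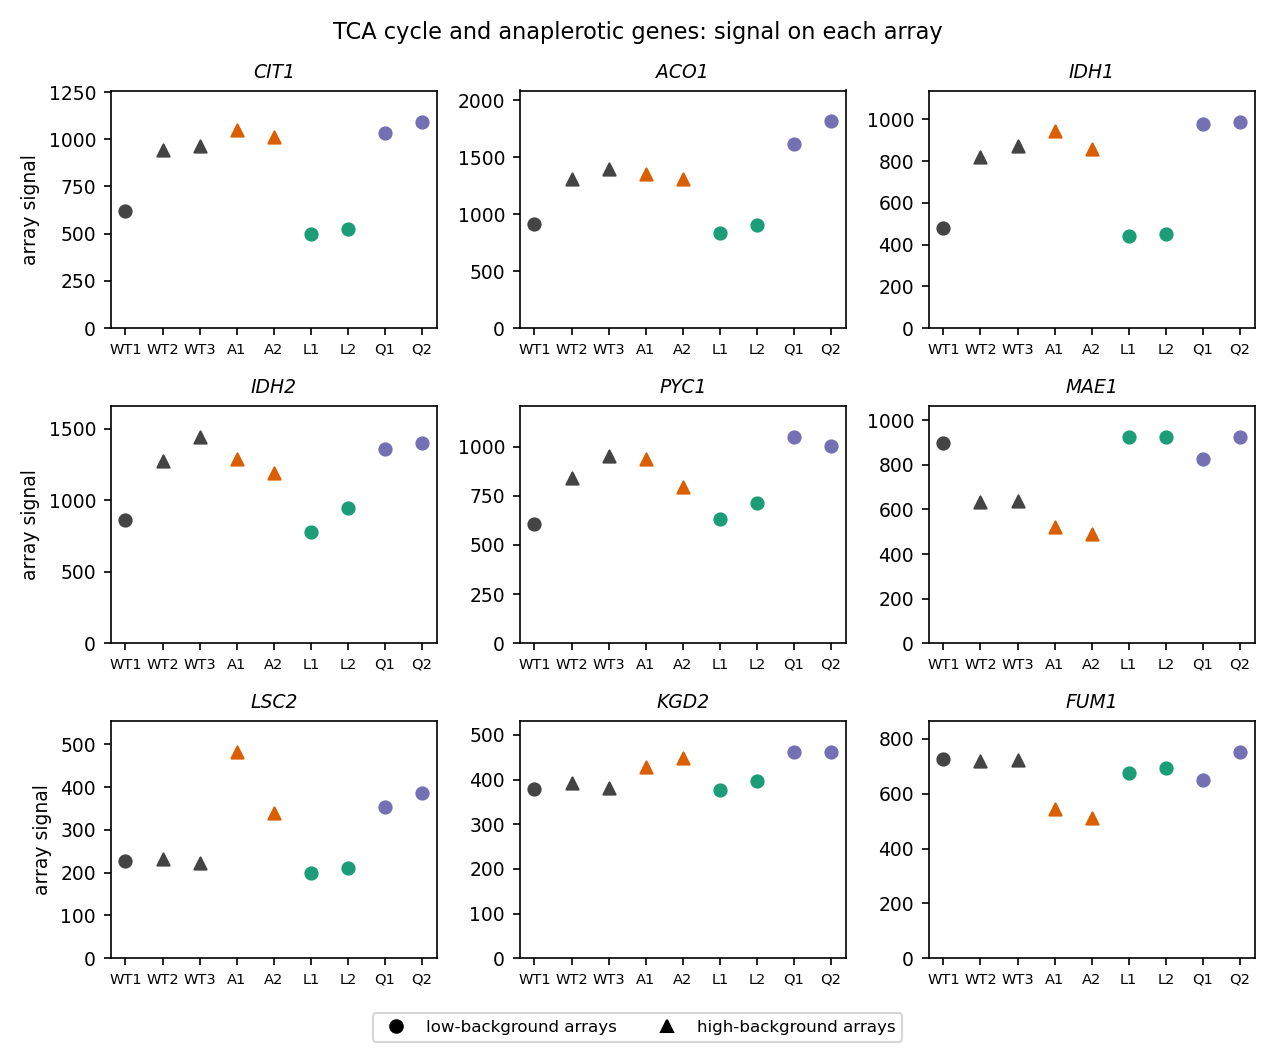
Array signal (vertical axis, from 0) of 9 TCA cycle and anaplerotic genes on each array, WT for wild type and A, L and Q for the mutants, with circles for low-background and triangles for high-background arrays. CIT1, ACO1, IDH1, IDH2 and PYC1 show wild type replicate 1 near K42L and wild type replicates 2 and 3 near K42A, with K42Q high among the circles; LSC2, KGD2 and FUM1 show 3 wild-type arrays close together.

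The paralog PYC2 did not share the pattern of PYC1. It read 585.4, 597.9 and 581.1 in wild type, 651.4 and 623.1 in K42A, 672.3 and 646.6 in K42L, and 537.7 and 494.5 in K42Q. K42A and K42L lay above wild type and K42Q below it. PYC2 fell by 0.19 ± 0.06 in K42Q (limma adjusted p = 0.0387), a call lost in 14 alternatives, and was 0.35 ± 0.07 higher in K42L than in K42Q (limma adjusted p = 0.00474). MAE1, the mitochondrial malic enzyme, read 896.6, 634.3 and 639.8 in wild type, 522.8 and 489.9 in K42A, 927.3 and 924.7 in K42L, and 826.4 and 926.1 in K42Q. Here wild type replicate 1 was the highest of its group, at the level of K42L and K42Q. MAE1 fell in K42A by 0.50 ± 0.14 (limma adjusted p = 0.0179), and by 0.33 ± 0.07 with the set as a block, but did not pass under cyclic loess (-0.36), under spike-in scaling with the set as a block (-0.15) or without either K42A array.

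Pyruvate dehydrogenase, which makes acetyl-CoA from pyruvate inside mitochondria, changed little. PDB1, the beta subunit of its first enzyme, read 1199.6, 1232 and 1276.3 in wild type, 1208 and 1199.8 in K42A, 1133 and 1194.2 in K42L, and 970.7 and 1016.6 in K42Q. LAT1, its acetyltransferase, read 1208.3, 1200.7 and 1225.3 in wild type, 1043.6 and 1026.8 in K42A, 1038.1 and 1119.3 in K42L, and 1080.1 and 1228.5 in K42Q. PDB1 was lowest in K42Q and LAT1 lowest in K42A, each without overlap with wild type. PDB1 fell by 0.31 ± 0.07 in K42Q (limma adjusted p = 0.00469), except under spike-in scaling with the set as a block (-0.10) or without K42Q replicate 1 (-0.28). LAT1 fell by 0.23 ± 0.07 in K42A (limma adjusted p = 0.0353), a call lost in 11 alternatives, quantile scaling (-0.05) among them. PDA1, the alpha subunit, read 1551.2 and 1577.3 in K42A and 1715.4 to 2151.2 in wild type, and did not pass (-0.27 ± 0.10, limma adjusted p = 0.0519), but fell with no filter and with the set as a block (-0.18 ± 0.06). In K42Q it did not pass (-0.03 ± 0.10) and fell with the set as a block (-0.22 ± 0.08). PDX1, the protein that binds the shared dehydrogenase to the complex, passed in no mutant.

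K42A and K42Q were then set against each other. Of the 27 tested genes 3 were higher in K42A (PYC2, ACH1 and PDB1) and 3 lower (MAE1, FUM1 and SUC2), against 9.96% and 8.15% of all tested genes. PCK1 differed by 0.25 ± 0.15 and ACS1 by 0.51 ± 0.16, and neither passed. JEN1 was 0.98 ± 0.30 higher in K42A in the fit with no filter, which missed the threshold (limma adjusted p = 0.0514). With the set as a block 0 were higher and 6 lower in K42A, against 8.74% and 9.91% of all genes. The 6 were FUM1 and the 5 genes of the set-dependent group, with CIT1 at -0.67 ± 0.09, ACO1 at -0.93 ± 0.12, IDH1 at -0.94 ± 0.10, IDH2 at -0.81 ± 0.15 and PYC1 at -0.81 ± 0.15. K42A and K42Q lie in different sets, so this fit joins them through the wild-type arrays alone, and the set and the mutation cannot be told apart without those arrays.

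Against K42L, 10 of the 27 were higher in K42A and 5 lower (22.1% and 21.9% of all tested genes). CIT1 (1.004 ± 0.18), ACO1 (0.61 ± 0.17) and IDH1 (1.01 ± 0.23) were among the higher, and with the set as a block CIT1 kept the call at 0.39 ± 0.09 while ACO1 (0.05) and IDH1 (0.19) did not. PCK1, ACS1, ACH1, LSC2 and MDH1 were higher in K42A than in K42L in every alternative run.

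Related genes outside the 39 were counted by list. SDH6, FOX2, TMA10 and MAL31, named below, read under the filter of 87.0 on every wild-type array, and HXT7 and PTC6 in their wild-type mean. Like PCK1, they were tested because of their signals in the mutants. Their place in these counts is thus not independent of their change. Each count is to be read against the shares of all tested genes called higher and lower, 22.6% and 19.7% in K42A and 21.4% and 18.2% in K42Q, with median changes of -0.01 and 0.00. Of succinate dehydrogenase and the remaining TCA genes, 9 of 10 tested were higher in K42A and 8 of 10 in K42Q, and 0 lower (medians 0.61 and 0.51). CIT2, the peroxisomal citrate synthase of the glyoxylate cycle, rose most in K42A (1.29 ± 0.14), followed by the succinate dehydrogenase subunit SDH1 (0.77 ± 0.09). In K42Q the assembly factors SDH6 (1.17 ± 0.18) and SDH5 (0.91 ± 0.10) led, and CIT2 did not pass (0.26 ± 0.14). In K42L 0 of 10 passed.

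Mitochondrial carriers had 4 of 12 tested higher and 4 lower in K42A and 3 higher and 7 lower in K42Q (medians -0.07 and -0.36). AGC1, the aspartate-glutamate carrier, rose by 0.74 ± 0.09 and ODC1, an oxodicarboxylate carrier, by 0.67 ± 0.09 in K42A. YMC1 fell by 0.67 ± 0.09 and OAC1, the oxaloacetate carrier, by 0.64 ± 0.08. In K42Q the dicarboxylate carrier DIC1 rose by 0.94 ± 0.08 and ODC1 by 0.48 ± 0.09, and MPC3, a pyruvate carrier subunit, fell by 1.01 ± 0.13 and YMC1 by 0.98 ± 0.09.

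Genes for the use of acetaldehyde, acetate, ethanol and glycerol had 5 higher and 1 lower of 11 tested in both mutants, with medians of 0.23 in K42A and 0.46 in K42Q. In K42A GUT2, the mitochondrial glycerol-3-phosphate dehydrogenase, rose by 1.09 ± 0.11 and ALD2, an aldehyde dehydrogenase, by 0.65 ± 0.13. ATO3, a plasma membrane protein linked to ammonia export, fell by 0.65 ± 0.12. In K42Q ALD2 (1.21 ± 0.13) and ADH2, the glucose-repressed alcohol dehydrogenase (0.78 ± 0.13), rose most, and ATO3 fell by 0.92 ± 0.12. In K42L ADH2 was the 1 call of this list, and it was lost with the set as a block (-0.50 ± 0.11).

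Of 16 genes of peroxisomal beta oxidation 6 were tested, with 4 higher and 2 lower in K42A and 3 higher and 0 lower in K42Q (medians 0.47 and 0.34). PIP2, an activator of peroxisomal genes, rose by 1.16 ± 0.10 and 0.75 ± 0.10, and FOX2, the multifunctional enzyme of the pathway, by 0.89 ± 0.13 and 0.64 ± 0.13. The acyl-CoA synthetases FAA4 (-0.34 ± 0.10) and FAA1 (-0.27 ± 0.09) fell in K42A.

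Regulators of carbon source response had 4 higher and 3 lower of 15 tested in K42A, and 4 and 4 in K42Q, with medians of -0.02 and -0.06. TOS3, a kinase that activates Snf1, rose by 0.97 ± 0.11 in K42A and 0.47 ± 0.11 in K42Q, and RGT1, a repressor of hexose transporter genes, by 0.72 ± 0.10 and 0.45 ± 0.10. MIG2 (-0.42 ± 0.10), a glucose repressor, and HXK2 (-0.37 ± 0.09), the main hexokinase on glucose, fell in K42A. In K42Q the kinase SNF1 itself (-0.40 ± 0.11) and GLC7 (-0.36 ± 0.07), the phosphatase subunit that opposes it, fell. Of 5 tested general stress markers 5 rose in both mutants and 1 fell in K42L, with medians of 1.63 in K42A and 2.65 in K42Q. DDR2 (2.82 ± 0.20) and TMA10 (2.76 ± 0.23) rose most in K42A, and TMA10 (3.22 ± 0.23) and DDR2 (2.81 ± 0.20) in K42Q. The part of this stress pattern in the carbon genes was not tested. Hexose transporter genes had 1 of 5 tested higher in K42A and 2 of 5 in K42Q. HXT7, a high-affinity transporter, was at 1.87 ± 0.39 in K42A and 1.30 ± 0.39 in K42Q. Its wild-type arrays differed by set, at 37.5 on replicate 1 and 113.2 and 105.3 on replicates 2 and 3. Of the 3 tested genes for the breakdown of gluconeogenic enzymes, GID7 rose by 1.14 ± 0.10 in K42A and 0.53 ± 0.10 in K42Q and UBC8, the ubiquitin-conjugating enzyme, by 0.30 ± 0.10 in K42A.

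Galactose, maltose and sucrose genes were mostly under the filter, and of 2 tested 1 rose and 1 fell in both mutants. MAL31, a maltose permease, rose by 0.92 ± 0.09 in K42A and 0.29 ± 0.09 in K42Q, where the call was lost with the set as a block. GAL80, the repressor of galactose genes, fell by 0.31 ± 0.06 and 0.37 ± 0.06. With no filter 11 of 12 were higher and 1 lower in K42A, and 9 higher and 2 lower in K42Q (medians 0.89 and 0.71). In that fit 30.8% and 28.7% of all 5449 genes were higher, and 16.2% and 14.5% lower. Of all genes under the filter 53.5% and 49.5% were higher. Of the kinases and phosphatases of pyruvate dehydrogenase 2 were tested, and the phosphatase PTC6 rose by 0.51 ± 0.09 in K42A and 0.41 ± 0.09 in K42Q. In K42L 0 of either list passed.

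In the gene order of the R64 assembly the genes were spread over the chromosomes. JEN1, PCK1, SUC2 and DAL7 were the 7th, 10th, 10th and 11th genes from a chromosome end. PCK1 rose in both K42A and K42Q, as did JEN1 and DAL7 in the fit with no filter. SUC2, on the same chromosome as DAL7, did not rise in K42A. PYC2 and PDB1, which have 2 genes between them, were both lower in K42Q than in K42L and passed as lower than wild type in K42Q. CIT3 and ICL2 have 4 genes between them, as do IDH2 and LSC1, and of the last pair LSC1 showed none of the division between sets seen for IDH2.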

How the data were processed

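Array signals were deposited as linear intensity values, made by the authors with GCOS 1.4 and MAS5 per the submitters' processing notes. Neither the version of MAS5 nor its scaling target is recorded there, and each array's mean trimmed by 2% on each side was 150.1. RNA was extracted with hot phenol and amplified in 1 round, per the labels' protocols. Zeros (126 of 98352 values) were replaced by 0.1, the lowest value above 0. The brightest of a gene's probe sets stood for it, named from the platform annotation. Signals were fitted as log2 with limma 3.58.1 in R 4.3.3, with 1 mean for each group over all 9 arrays and an intensity trend. The fit was tested on simulated data. Figures used matplotlib 3.10.9. Text names all 39 genes and gives arrays for those called in a mutant or under the filter, and, for related lists, the 2 called genes furthest from 0 in each direction. The genes, lists and alternatives were chosen with earlier results of these data known. Promoter and protein sequences were not analysed here. The number of arrays, 2 or 3 in a group, limits the precision.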

Additional observations from a re-analysis of the deposited data

How the results depend on the processing

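Counts of called genes among the 27, rising and falling, moved with the choices made. For K42A against wild type the falling count of 4 became 11 under median centring, 2 under spike-in scaling with the background set as a block and also 2 under cyclic loess, 7 with the set as a block or within the set, and 2 with the compared groups alone. The rising count of 7 became 12 under that spike-in scaling and 19 with no filter. For K42Q against wild type the rising count of 9 became 3 under median centring, 20 with no filter and 5 with the compared groups alone, and the falling count of 4 became 0 under spike-in scaling. For K42A against K42L the falling count of 5 became 9 under median centring and 0 under spike-in scaling, and the rising count of 10 became 20 with no filter. For K42A against K42Q the rising count of 3 became 5 under quantile scaling and 0 under spike-in scaling or the set as a block, and the falling count of 3 became 5 under spike-in scaling, 6 with the set as a block and 5 with the compared groups alone. For K42L against K42Q the count of higher genes, 4, became 1 under spike-in scaling and 2 under either quantile scaling or cyclic loess, and that of lower genes, 11, became 21 with no filter. Counts over all 4087 tested genes moved as well. For K42A against wild type 807 fell as reported, 1683 under median centring and 208 under spike-in scaling. For K42A against K42L these counts were 896, 1589 and 87. For K42Q against wild type 873 rose as reported and 600 under median centring. The counts among the 27 are to be read against such counts and are no result about the 27 alone. The cause was not tested, apart from the fits with no filter, which hold 12 more of these genes.

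With 1 array left out, rising and falling counts ranged from 4 to 7 and 2 to 7 in K42A (7 falling without wild type replicate 1, 4 rising without K42A replicate 1, 2 falling without K42A replicate 2). They ranged from 0 to 4 and 0 to 7 in K42L (the highest without wild type replicate 1), and from 4 to 12 and 0 to 4 in K42Q (4 rising without either K42Q array, 0 falling without replicate 1). They ranged from 7 to 13 and 3 to 5 for K42A against K42L (3 without K42L replicate 1), from 0 to 5 and 0 to 6 for K42A against K42Q (0 rising without any 1 of these 4 arrays, 0 falling without K42A replicate 2 or K42Q replicate 2, 5 and 6 without wild type replicate 1), and from 2 to 4 and 6 to 11 for K42L against K42Q (6 without K42L replicate 1, 7 without either K42Q array). A lone array was assumed to vary like the other groups. Counts over all 4087 tested genes moved too. Without wild type replicate 1, 873 were higher and 848 lower for K42A against K42Q, beside 407 and 333 with all arrays. In K42L 689 rose and 675 fell without that array, beside 13 and 14 with all arrays.

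Among medians, and genes called in either fit, signs turned as follows, and uncalled values near 0 changed sign more often. The median of the 27 in K42A was -0.055 under median centring and -0.024 with the set as a block or within the set. With 1 array left out it ranged from -0.024 (without wild type replicate 1) to 0.14 (without K42A replicate 2). The median of the 27 for K42A against K42L was -0.014 with the set as a block. For K42A against K42Q the median was -0.040 over the 27 and 0.019 over all 39 genes with no filter. PDB1 was at 0.18 in K42A under quantile scaling. Against K42L, LPD1 in K42A was at 0.19 under cyclic loess and PDA1 at 0.061 under spike-in scaling with the set as a block. With no filter, CAT8 was at -0.0079 in K42A under quantile scaling, at -0.23 and -0.039 against K42L under quantile scaling and cyclic loess, and at 0.0082 for K42L against K42Q under quantile scaling. FBP1 was at -0.0089 for K42A against K42L under quantile scaling.

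Same-numbered arrays correlated at -0.30 to 0.18 in their deviations from the group means. With 2 arrays in each mutant, the deviations of its replicates mirror each other. These values thus cannot decide whether the shared replicate numbers pair the arrays. With a replicate block 5 of the 27 genes rose and 3 fell in K42A, beside 746 and 545 of all 4087 tested genes. In K42Q 2 of the 27 fell, beside 497 of all tested genes. Signals near the background limit CAT8, SIP4 and SFC1 most.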

Other observations

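PDH1, a mitochondrial protein of propionate use that lies between CIT3 and ICL2 in the gene order, was chosen after its values were seen. It read 60.9, 143.7 and 141.8 in wild type, 228.7 and 216.3 in K42A, 55.8 and 63.2 in K42L, and 159.2 and 132 in K42Q. As for CIT1 and IDH1, wild type replicate 1 lay with K42L. With no filter PDH1 rose in K42A (1.05 ± 0.31, limma adjusted p = 0.0205), did not pass in K42Q against wild type (0.43 ± 0.31), and was lower in K42L than in K42Q (-1.29 ± 0.34, limma adjusted p = 0.0164). With the background set as a block the change was 0.64 ± 0.10 in K42A (limma adjusted p = 0.000333), and PDH1 passed in K42Q (1.25 ± 0.13, limma adjusted p = 2.06e-05). HAP4, the activator subunit of the complex that drives respiratory genes, was also chosen after its values were seen. It read 277, 84.1 and 78 in wild type, 86.8 and 74.5 in K42A, 172 and 185.9 in K42L, and 89.3 and 103.6 in K42Q. HAP4 passed in no mutant in the fit without the set. Its wild-type arrays differed by set, and wild type replicate 1 read above the K42L and K42Q arrays of the same set.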
